A study of Mus musculus with 16 samples.

Results

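The cortical genes described here are *Abi3bp*, *Plk5*, *Rassf3*, *Gpr153*, *Lrrc55*, *Nell1*, *Mxra7* and *Atp6ap1l*. They were chosen because each was higher at postnatal day 14 (P14) in mice whose excitatory cortical neurons had lost ERK/MAPK signaling, and lower at P21 in mice whose same neurons carried an overactive form of the pathway. They are 8 of the 18962 genes measured in both models. Because the P14 and P21 differences chose them, the values at those ages are given as a description with no test. The stated rule for the choice names P14 and P21 and not P9, so P9 is the comparison in which the 8 genes were tested. They were listed with earlier results of these data known, so it cannot be shown that P9 values had no part.

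All values come from Affymetrix gene arrays of bulk cortical RNA, 1 array per mouse. The loss-of-function mutants, *Map2k1/2;Neurod6-Cre*, combined a germline *Map2k2* deletion with a loxp-flanked *Map2k1* that *Neurod6-Cre* removed in postmitotic excitatory neurons, and were compared with controls at P9 (2 mutants, 2 controls) and at P14 (3 mutants, 3 controls). The gain-of-function mutants, *ca-Map2k1;Neurod6-Cre*, expressed a constitutively active *Map2k1* under the same Cre driver and were compared with controls at P21 (3 mutants, 3 controls). Controls were littermates with or without Cre on a mixed genetic background, and no source used here says which control carried which allele. Interneurons, glia and vessel cells kept their *Map2k1* alleles, and in bulk tissue fewer cells of a type and less RNA per cell cannot be told apart.

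ERK/MAPK signaling runs from RAS through RAF kinases to the kinases MAP2K1 and MAP2K2. The active pathway acts on transcription factors of the ETS, AP-1, CREB and Capicua families and induces *Egr* genes, and it also switches on its own feedback inhibitors. In the postnatal cortex the pathway is best known for its part in activity-regulated transcription and axon growth. The 8 genes do not belong to a single known pathway. *Abi3bp* and *Nell1* encode secreted proteins, the former of the extracellular matrix and the latter a thrombospondin-related protein best known from bone formation, and *Mxra7* a little-studied membrane protein associated with matrix remodelling. *Lrrc55* encodes an auxiliary subunit of the BK potassium channel and *Gpr153* an orphan G protein-coupled receptor. *Rassf3* encodes a protein with a Ras-association domain, *Plk5* a polo-like kinase family member that has lost the mitotic role of its relatives, and *Atp6ap1l* a relative of the V-ATPase accessory protein ATP6AP1.

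The stretches upstream of 3 of the genes are shown because ERK-responsive factors bind near transcription starts and because the 3 differ in base composition. Each holds the 250 bases before an annotated start, 5′ to 3′ on the gene's strand, from RefSeq on GRCm38.p6. *Gpr153* lies on the plus strand at chr4:152273862-152274111, *Plk5* on the plus strand at chr10:80356209-80356458, and *Lrrc55* on the minus strand at chr2:85198751-85199000. Capitals mark the only match to a searched motif.
Gpr153: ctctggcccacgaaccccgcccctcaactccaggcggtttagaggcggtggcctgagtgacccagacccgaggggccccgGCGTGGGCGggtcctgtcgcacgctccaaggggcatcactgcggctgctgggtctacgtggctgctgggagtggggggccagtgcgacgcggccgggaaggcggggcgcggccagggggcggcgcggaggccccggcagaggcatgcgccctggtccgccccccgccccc
Plk5: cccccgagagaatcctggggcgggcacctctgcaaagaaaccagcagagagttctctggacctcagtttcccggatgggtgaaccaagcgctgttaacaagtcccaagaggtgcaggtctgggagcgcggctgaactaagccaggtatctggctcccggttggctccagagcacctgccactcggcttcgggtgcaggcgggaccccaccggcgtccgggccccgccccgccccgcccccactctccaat
Lrrc55: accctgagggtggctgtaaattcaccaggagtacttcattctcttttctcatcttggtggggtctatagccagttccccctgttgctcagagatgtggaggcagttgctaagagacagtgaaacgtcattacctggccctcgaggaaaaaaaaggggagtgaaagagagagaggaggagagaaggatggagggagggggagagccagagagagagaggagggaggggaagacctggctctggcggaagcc
The printed windows of *Gpr153* and *Plk5* were GC-rich, at 76.8% and 65.6%, with 26 and 16 CpG dinucleotides. That of *Lrrc55* held 54% GC and 3 CpGs, against medians of 52.4% and 6 over 32851 mouse windows. A further *Gpr153* window, before another annotated start (chr4:152274112-152274361), held 81.6% GC and 36 CpGs and is not printed. Upstream windows were given for 5 of the 8 genes, 7 windows in all. On both strands they were searched for AP-1 (TGANTCA), the cyclic AMP response element (TGACGTCA), ETS (CCGGAAG), Egr (GCGNGGGCG) and Capicua (TGAATGAA or TGAATGGA) letters, which occurred in 6.75%, 1.55%, 6.91%, 4.7% and 2.07% of all windows. The single match was the Egr motif in the printed *Gpr153* window, 170 to 162 bases before the start of that window's transcript. A match describes letters, not a bound site.

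The mean difference between mutants and controls is given on the log2 scale, on which 1 is a doubling of signal. Ages and models were normalized apart, so levels are compared within an age and never across ages. The array medians ran from 6.13 to 6.18 at P9, 7.91 to 8.08 at P14 and 6.23 to 6.31 at P21. Arrays of an age correlated at 0.995 to 0.997, 0.977 to 0.997 and 0.993 to 0.996. Markers of excitatory cortical neurons averaged 10.39 to 10.43 at P9, 11.62 to 11.70 at P14 and 10.78 to 10.88 at P21, above the array median in every mouse. The whole-gene probe sets do not resolve the *Map2k1* and *Map2k2* deletions: the loss-of-function differences in *Map2k1* were 0.01 at P9 and 0.07 at P14, and those in *Map2k2* 0.00 and 0.03. At P21 *Map2k1* read 10.10 ± 0.02 in controls and 10.33 ± 0.04 in gain-of-function mutants (SD, n = 3, limma adjusted p = 0.310). *Neurod6*, the gene whose locus drives Cre, differed by -1.80 at P9 (adjusted p = 0.0925), fell by 3.07 at P14 (adjusted p = 0.00765) and differed by -0.24 at P21 (adjusted p = 0.463). The part of the lower *Neurod6* signal in the differences of the 8 genes was not tested. By *Xist*, P14 mutants 9 and 11 were female and the other 14 mice male. The P14 arrays of mice 1 and 2 had a lower bottom quartile (6.65 and 6.63) than those of mice 9 to 12 (6.80 to 6.89), so P14 values are also given within mice 9 to 12. This split into array sets was read from the array values, not from a label.

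*Abi3bp*, the extracellular matrix gene, had the highest P14 difference of the 8 genes and ranked 2 of 19938. Its P14 log2 signal was 8.25, 8.14 and 8.19 in controls 2, 10 and 12 and 10.17, 9.73 and 10.01 in mutants 1, 9 and 11, a mean difference of 1.78 (3.43-fold). The groups were far apart, with a gap of 1.48 between the lowest mutant and the highest control. In gain-of-function cortex at P21 the signal was 7.78, 7.87 and 7.27 in controls 2, 4 and 5 and 6.90, 6.55 and 6.27 in mutants 1, 3 and 6, a difference of -1.07 (2.09-fold lower). The P21 groups were also separate, although control 5 lay nearer to the mutants than the other controls did. At P9 the controls read 6.09 and 6.07 and mutants 1 and 4 read 8.09 and 7.28, so both mutants were well above both controls but differed from each other by more than the controls did.

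*Atp6ap1l*, the V-ATPase accessory protein relative, had its groups in the same order. Its P14 signal was 7.87, 8.07 and 7.89 in controls 2, 10 and 12 and 9.77, 9.32 and 9.58 in mutants 1, 9 and 11, a difference of 1.61 (3.06-fold). Its P21 signal was 7.66, 7.74 and 7.61 in controls 2, 4 and 5 and 6.90, 7.01 and 6.93 in mutants 1, 3 and 6, a difference of -0.72 (1.64-fold lower). Neither age had overlapping groups, and the P21 replicates were close together (SD 0.07 in controls and 0.06 in mutants, n = 3 each). At P9 its controls were nearly equal, 6.39 and 6.38, and mutants 1 and 4 read 8.38 and 7.68. Mutant 1 was again the higher of the P9 mutants.

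*Plk5*, the polo-like kinase family member, overlapped its controls at P9. Its P9 signal was 5.74 and 5.53 in controls 2 and 3 and 5.78 and 5.64 in mutants 1 and 4. At P14 it was 7.75, 8.07 and 8.09 in controls 2, 10 and 12 and 9.06, 9.70 and 9.61 in mutants 1, 9 and 11, a difference of 1.49 (2.81-fold). Mutant 1, the male mutant, was the lowest P14 mutant, and stood 1.31 above mouse 2. At P21 the signal was 7.97, 7.86 and 7.07 in controls 2, 4 and 5 and 6.94, 6.88 and 6.60 in mutants 1, 3 and 6, a difference of -0.83 (1.77-fold lower). The P21 groups were separated by only 0.13, since control 5 was close to mutant 1, and the difference was -1.11 without control 5. *Plk5* lies on the same chromosome as *Map2k2*, with 36 protein-coding genes between them in the GRCm38.p6 gene table, of which 34 were measured in the loss-of-function table and 0 were called at P9 or P14 (0.0752% and 1.09% of all genes were). Their differences ran from -0.32 to 0.66 at P9 and from -0.28 to 0.14 at P14.

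*Gpr153*, the orphan receptor whose printed upstream window held the Egr letters, had the next highest P14 difference, 1.39 (2.62-fold). Its P14 signal was 8.29, 8.10 and 8.18 in controls 2, 10 and 12 and 9.72, 9.57 and 9.45 in mutants 1, 9 and 11. The P14 groups were 1.16 apart at their nearest. At P21 it was 7.47, 7.58 and 7.42 in controls 2, 4 and 5 and 7.18, 6.97 and 7.00 in mutants 1, 3 and 6, a difference of -0.44 (1.36-fold lower), the smallest P21 difference of the 8. At P9 the controls read 7.61 and 7.48 and the mutants 7.70 and 7.84, a narrow separation.

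*Lrrc55*, the BK channel subunit, was higher by 1.06 at P14 (2.08-fold). Its signal there was 9.90, 9.41 and 9.28 in controls 2, 10 and 12 and 10.60, 10.62 and 10.56 in mutants 1, 9 and 11. The mutants were nearly equal and the controls were spread, with control 2 the highest. At P21 it was 8.77, 8.74 and 8.43 in controls 2, 4 and 5 and 8.14, 8.12 and 8.05 in mutants 1, 3 and 6, a difference of -0.54 (1.46-fold lower) with no overlap. A dimmer probe set for *Lrrc55* on the P21 array read 6.80 ± 0.10 in controls and 6.73 ± 0.01 in mutants (SD, n = 3), a difference of -0.07, and the mean of the 2 probe sets differed by -0.30. At P9 the controls read 9.14 and 9.23 and the mutants 9.71 and 9.63, without overlap.

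*Nell1*, *Rassf3* and *Mxra7* had the smallest P14 differences of the 8. *Nell1*, the secreted protein, read 9.05, 9.17 and 9.13 in P14 controls 2, 10 and 12 and 9.79, 9.81 and 9.57 in mutants 1, 9 and 11, a difference of 0.61 (1.53-fold). At P21 it read 9.07, 8.76 and 8.75 in controls 2, 4 and 5 and 8.15, 8.37 and 8.56 in mutants 1, 3 and 6, a difference of -0.50 (1.41-fold lower). Its groups were separate at both ages, and also at P9, where the controls read 8.80 and 8.89 and the mutants 9.17 and 9.33. *Rassf3*, the Ras-association domain gene, was the one whose P14 and P21 differences were closest in size. It read 8.87, 9.00 and 8.87 in P14 controls and 9.52, 9.56 and 9.67 in mutants (0.67, 1.59-fold), and 8.58, 8.29 and 8.07 in P21 controls and 7.71, 7.76 and 7.47 in mutants (-0.67, 1.59-fold lower). Its groups did not overlap at P14, at P21 or at P9, where controls 2 and 3 read 7.36 and 7.31 and mutants 1 and 4 read 7.87 and 7.74.

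*Mxra7*, the membrane protein gene, was the only one of the 8 with overlapping groups at P21. Its P14 signal was 8.17, 8.09 and 8.19 in controls 2, 10 and 12 and 8.63, 8.74 and 8.88 in mutants 1, 9 and 11, a difference of 0.60 (1.51-fold) with no overlap. At P21 controls 2, 4 and 5 read 7.73, 7.52 and 6.92 and mutants 1, 3 and 6 read 6.90, 7.06 and 6.81, a difference of -0.47 (1.38-fold lower). Control 5 fell between the mutants, and without it the difference was -0.70, against -0.30 without control 2. At P9 the signal was 6.82 and 6.85 in controls and 7.06 and 6.97 in mutants, separate but by only 0.12.

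**Figure D1:**
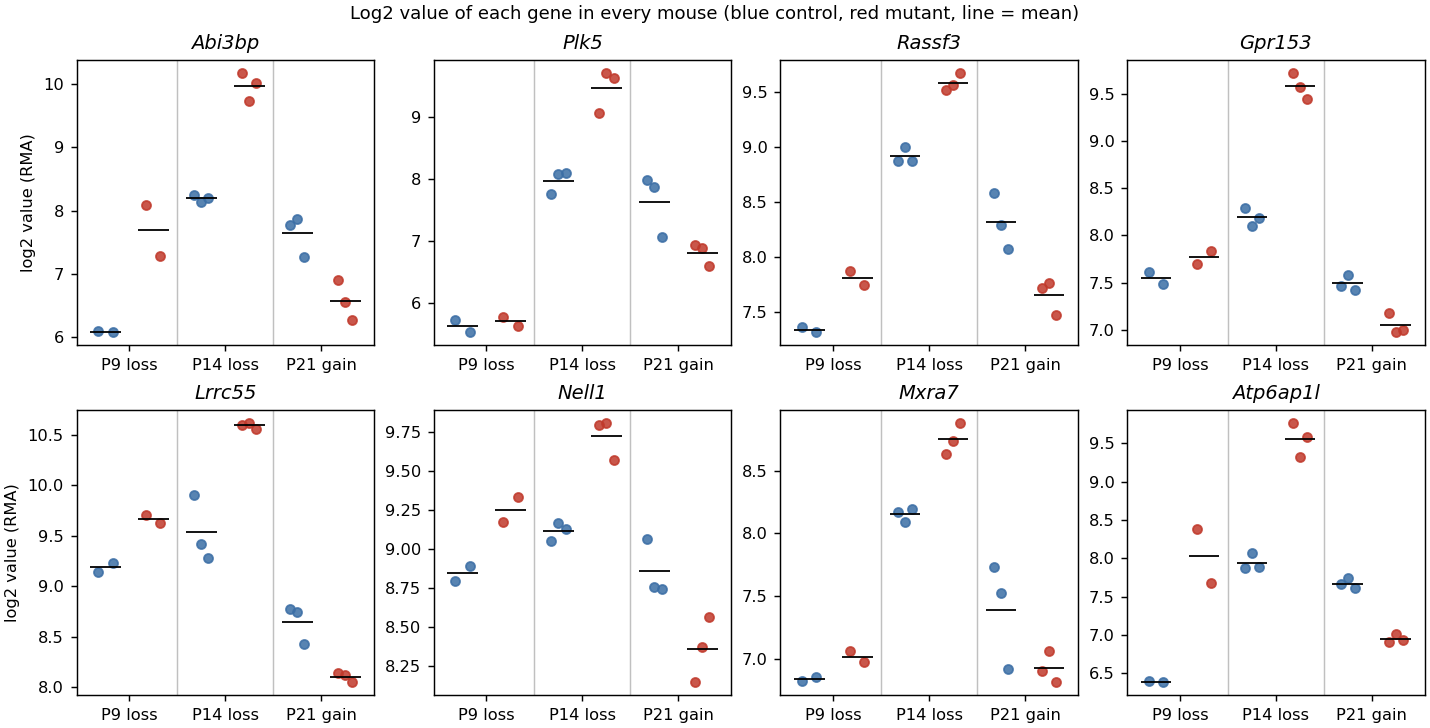
Log2 signal of each of the 8 genes in each of the 16 mice (vertical axes), with control and mutant mice side by side at P9, P14 and P21 (horizontal axes), 1 point per mouse and a bar for each group mean. P14 mutants sit above all P14 controls in 8 of 8 genes, against 7.11% of all genes. P21 mutants sit below all P21 controls in 7 of 8, *Mxra7* excepted, against 7.67% of all genes. The P14 and P21 differences chose the genes.

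In the P9 comparison, none of the 8 genes passed an adjusted p of 0.05 in limma's moderated test over 19938 genes, in which 15 genes (0.0752%) passed. *Atp6ap1l* had the largest P9 difference of the 8, 1.64 (standard error 0.22, adjusted p = 0.114), followed by *Abi3bp* at 1.60 (0.25, adjusted p = 0.136), and they ranked 2 and 3 of all genes in size among those higher. *Lrrc55* differed by 0.48 (adjusted p = 0.176), *Rassf3* by 0.47 (adjusted p = 0.179) and *Nell1* by 0.41 (adjusted p = 0.253). These 5 genes were higher at an unadjusted p under 0.05, which 5.32% of all genes were. *Gpr153* (0.22, adjusted p = 0.493), *Mxra7* (0.18, adjusted p = 0.526) and *Plk5* (0.08, 95% interval -0.19 to 0.34, adjusted p = 0.858) did not reach it. With 2 mice a group, the mutants lay above the controls in 7 of the 8 genes, *Plk5* excepted, against 22.0% of all genes, and the mean was higher in 8 of 8 against 51.8%. The median P9 difference was 0.44 over the 8 genes and 0.01 over all genes.

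The P9 calls depended on how the variance was estimated. The share of all genes passing in the fits that follow is not given here. With P9 and P14 in a single limma fit *Abi3bp* (adjusted p = 0.0199) and *Atp6ap1l* (adjusted p = 0.0167) passed. That fit takes its variance also from the P14 arrays, which chose the genes, so these passes are no independent test. With trended and robust moderation in limma *Abi3bp*, *Atp6ap1l* and *Lrrc55* passed (adjusted p = 0.0228, 0.0119 and 0.0258). The difference in *Abi3bp* was 1.20 without mutant 1 and 2.01 without mutant 4, and that in *Atp6ap1l* 1.29 and 1.99. The P9 differences were not tested against those at P14, since P14 chose the genes. Set side by side, the P9 difference was 0.05 of the P14 difference in *Plk5* and 1.02 of it in *Atp6ap1l*.

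**Figure D2:**
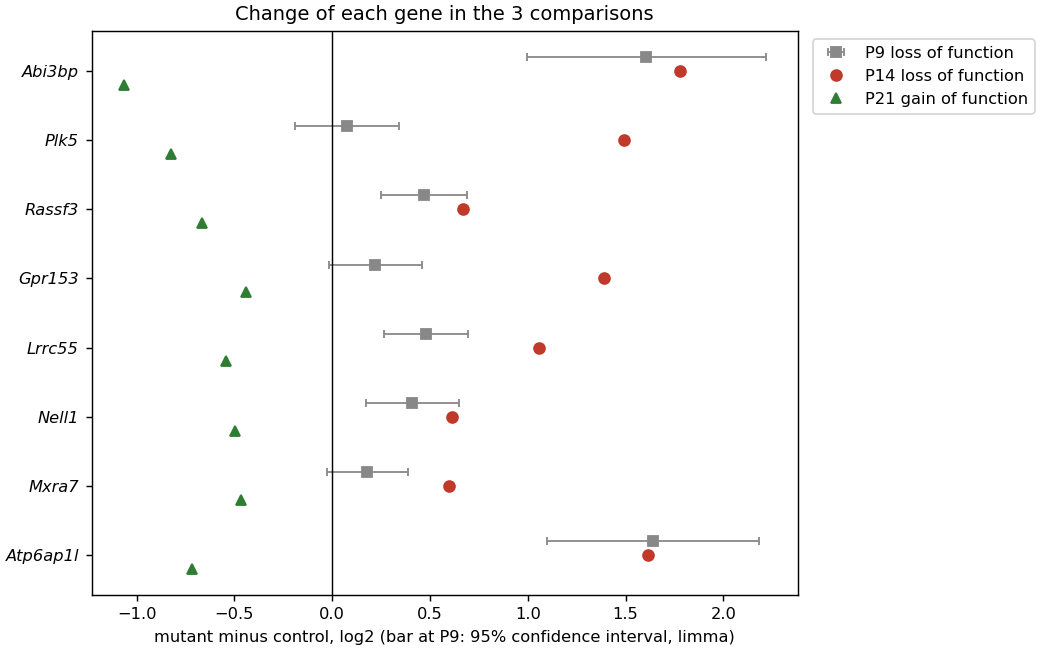
Mutant minus control (log2, horizontal axis) of each of the 8 genes (vertical axis) at P9, P14 and P21, with 95% confidence intervals from limma at P9 only, because P14 and P21 chose the genes. Every P14 point lies at 0.60 or above and every P21 point at -0.44 or below, while P9 points run from 0.08 (*Plk5*) to 1.64 (*Atp6ap1l*).

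At P14 the mutants lay above every control in 8 of 8 genes, against 7.11% of all genes, and at P21 they lay below every control in 7 of 8, against 7.67%, both contrasts that the choice of genes used. The median difference was 1.22 at P14 and -0.60 at P21, and 0.02 and 0.01 over all genes. Within P14 mice 9 to 12 the differences kept their sign and ran from 0.54 (*Nell1*) to 1.71 (*Abi3bp*), and mouse 1 minus mouse 2, with 1 mouse each, gave 0.46 (*Mxra7*) to 1.92 (*Abi3bp*). With sex as a covariate, which rests on the male mutant 1 alone, *Plk5* differed by 1.10 and *Abi3bp* by 1.98, and the lowest was *Mxra7* at 0.48. All 8 genes lay above the P14 control mean in each of the 3 mutants, the male included.

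Averaged over the 8 genes, the deviation from the control mean of the age was 0.74 and 0.53 in P9 mutants 1 and 4, and 1.16, 1.13 and 1.17 in P14 mutants 1, 9 and 11. At P21 it was -0.60, -0.61 and -0.74 in mutants 1, 3 and 6. The mean over the genes varied less among mutants at P14 than at P9. P14 chose the genes, which can favour genes with close P14 replicates, so this contrast is no result about age. Among controls the mean over the genes stayed between -0.02 and 0.02 at P9 and P14. At P21 it was 0.17 in control 2, 0.09 in control 4 and -0.26 in control 5. All 8 genes were below the control mean in control 5. Without that mouse the P21 differences ran from -0.48 in *Gpr153* to -1.25 in *Abi3bp*.

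**Figure D3:**
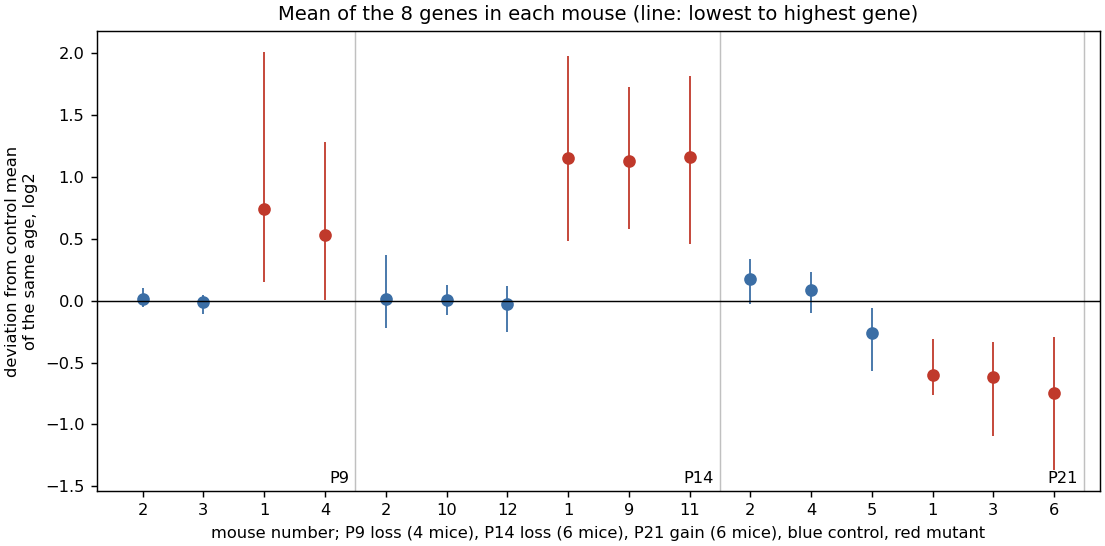
Mean deviation of the 8 genes from the control mean of their age (log2, vertical axis) in each of the 16 mice, grouped by age and genotype, with a line from the lowest to the highest of the 8 genes in that mouse. P14 mutants lie between 1.13 and 1.17, and P21 mutants between -0.60 and -0.74 with control 5 at -0.26, at the ages that chose the genes.

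Across the 16 mice all 28 pairs of the 8 genes were positively correlated (Pearson r 0.77 to 0.98, median 0.90), which follows from group means that the choice fixed. After the mean of each group was removed, r ran from -0.40 to 0.84 with a median of 0.16, and 19 of 28 pairs were positive. Mouse by mouse within groups, *Mxra7*, *Rassf3* and *Abi3bp* followed the mean of the other 7 genes most closely (r = 0.81, 0.80 and 0.63), while *Gpr153* (0.04) and *Nell1* (-0.12) did not follow it. These values share arrays and their normalization, and are descriptions over 16 mice.

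The 8 genes are not all of the genes with this pattern. Of the 18962 genes, 28 were called higher at P14 (adjusted p under 0.05, which 0.391% of genes were) and were lower at P21 at an unadjusted p under 0.05 (5.31%). All 8 are among them, which follows from their choice and is no test of them. The criterion itself was chosen after the data were seen. No gene was called at P21 in limma after adjustment (0.0%), while an unadjusted p under 0.05 was reached by 1136 genes as higher and 1177 as lower. The other 20 include the glycine receptor subunit *Glra1*, the sodium channel subunit *Scn4b* and the potassium channel subunit *Kcns1*, whose P14 differences of 1.27, 1.26 and 1.15 exceeded that of *Lrrc55*. They also include the layer 4 transcription factor *Rorb* (0.85 at P14 and -0.58 at P21), the synaptic vesicle proteins *Vamp1* (0.88 and -0.36) and *Syt2* (0.81 and -0.36), the neurofilament *Nefm* (0.72 and -0.58) and the T-type calcium channel *Cacna1g* (0.71 and -0.41). The remaining 12 were *Smoc2*, *Unc5d*, *Necab3*, *Postn*, *Traf5*, *Stard10*, *Ccdc3*, *Tbc1d8*, *Syn3*, *Kcnip2*, *Neu2* and *Ank1*. Between the lowest of the 8, *Mxra7* at 0.60, and the lowest of the other genes, *Ank1* at 0.49, lay only *Neu2* at 0.50. At P9 *Postn* (-0.24) and *Nefm* (-0.03) differed in the other direction, which none of the 8 did. By the same criterion 23 genes were lower at P14 and higher at P21, 9 were lower at both, and 1, *Cdkl1*, was higher at both.

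A criterion on size, more than 1.5-fold and an unadjusted p under 0.05 at each age, was met by 0.577% of genes as higher at P14 and by 0.451% as lower at P21. Both were met by *Abi3bp*, *Atp6ap1l*, *Plk5* and *Rassf3* of the 8 genes, together with *Cpne9*, *Scn4b* and *Shisa3*. For the 8 genes this describes the values that chose them and is no test. *Gpr153*, *Lrrc55*, *Nell1* and *Mxra7* were under 1.5-fold at P21. In the other direction (1.08% lower at P14, 0.153% higher at P21) stood 6 genes, *Cbln1*, *Htr2c*, *Met*, *Rxfp2*, *Tshz2* and *Vwc2l*, and *Ptgs2* was lower at both.

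**Figure D4:**
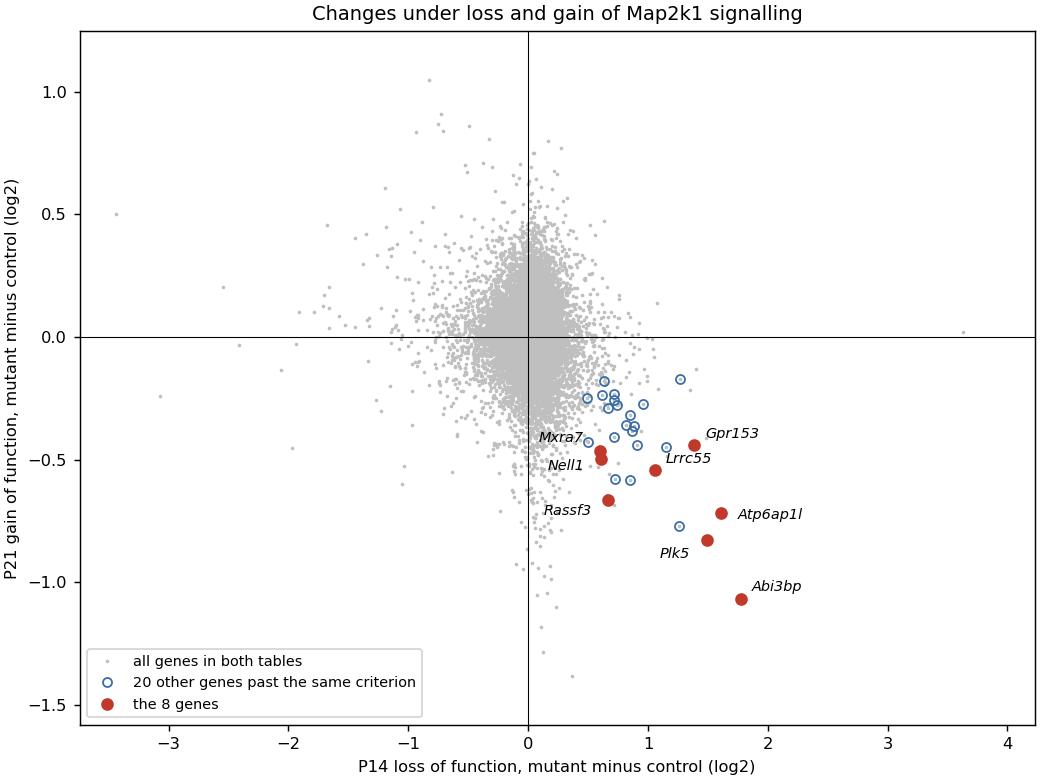
Mutant minus control at P14 under loss of function (log2, horizontal axis) against mutant minus control at P21 under gain of function (log2, vertical axis) for all 18962 genes in both tables (grey), the 8 genes (red, named) and the 20 other genes past the same criterion (open circles). *Abi3bp* lies farthest toward the lower right of the 28, at 1.78 and -1.07.

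The relatives and partners of the 8 genes had differences on both sides of 0. At P9, P14 and P21, *Gpr162*, the closest relative of *Gpr153*, differed by 0.09, -0.08 and -0.03. *Atp6ap1*, which *Atp6ap1l* resembles, differed by 0.00, -0.18 and 0.06, and *Nell2*, the neural relative of *Nell1*, by -0.16, -0.28 and 0.11. *Kcnma1*, which encodes the pore of the BK channel that LRRC55 modulates, differed by 0.06, -0.14 and -0.07. Over 68 listed relatives and partners (other polo-like kinases, Ras-association family genes and their SARAH partners, BK subunits, NELL2 and its ROBO receptors, V-ATPase subunits, Abi and matrix genes, and orphan receptors), 66 were measured at P9 and P14 and 64 at P21. None was called at any age in limma, against 0.0752%, 1.09% and 0.0% of all genes. The P14 count became 9 with the array sets (mice 1 and 2, mice 9 to 12, a split read from the array values) as a block and 6 within mice 9 to 12. The shares just given are those of the main fit and do not apply to these counts. At an unadjusted p under 0.05, 6 were higher and 6 lower at P9 (5.32% and 5.21% of all genes), 2 and 6 at P14 (4.05% and 4.38%), and 4 and 5 at P21 (5.12% and 5.31%). Their median difference was -0.00, -0.04 and 0.00. Some listed genes had the same signs as the 8 genes. *Robo3*, an axon guidance receptor, differed by 0.57, 0.52 and -0.52 (adjusted p = 0.158, 0.135 and 0.327), and *Acan*, which encodes the proteoglycan aggrecan, by 0.53, 0.52 and -0.30 (adjusted p = 0.250, 0.0712 and 0.341), both at an unadjusted p under 0.05 at each age.

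Of 24 genes that ERK is known to induce, 12 fell at P14 (0.697% of all genes fell) and 0 rose, with a list median of -0.66 and a higher mean in 3 of 24. *Arc*, the synaptic immediate early gene, fell by 1.97 (adjusted p = 0.000941), *Nr4a1*, an activity-induced nuclear receptor, by 1.71 (adjusted p = 0.00167), the feedback inhibitor *Spred2* by 1.34 (adjusted p = 0.00266) and the ETS factor *Etv5* by 1.06 (adjusted p = 0.00469). The count of 12 was 4 without control 10, control 12 or mutant 11, 5 without mutant 9, 6 without control 2 or with sex as a covariate, and 1 with no moderation. It was 16 with the array sets as a block, 15 within mice 9 to 12, 14 with both loss-of-function ages in 1 fit, 13 with quantile normalization and 10 without mutant 1. At P9 only *Spred2* was called (it fell by 1.12, adjusted p = 0.0468), against 0.0502% of all genes, and the list median was -0.43. That call was lost without control 2, mutant 1 or mutant 4. At P21 none of the 24 was called and the list median was 0.09. By unadjusted p, *Etv4* (0.16) and *Myc* (0.35) were higher and *Egr1* (-0.31), *Egr2* (-0.30) and *Arc* (-0.45) lower.

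Of 12 lists of cell type markers read beside these results, 0 genes were called at any age in limma. At an unadjusted p under 0.05, 13 of 62 measured were higher and 4 lower at P9 (5.32% and 5.21% of all genes), 3 and 6 of 62 at P14 (4.05% and 4.38%), and 3 and 5 of 60 at P21 (5.12% and 5.31%). At P21, where the 8 genes were lower, the mean of 5 of 6 listed oligodendrocyte markers was 10.35, 10.36 and 10.03 in controls 2, 4 and 5 and 9.75, 10.01 and 9.86 in mutants 1, 3 and 6, so the groups did not overlap and control 5 was again the lowest control. All 5 were lower (median -0.37), with *Mog* (-0.54), *Mag* (-0.58) and *Cnp* (-0.37) at an unadjusted p under 0.05, and *Mobp* (-0.32) and *Mbp* (-0.06) above it. At P14, where the 8 genes were higher, the same list overlapped, with 11.07 to 11.63 in controls and 11.30 to 11.65 in mutants. The mean of 7 endothelial and pericyte markers was lower at P14 (8.44 to 8.71 in mutants against 8.74 to 8.97), with 1 of 7 higher. That of 7 interneuron markers was higher (10.12 to 10.15 against 10.06 to 10.11), with 5 of 7 higher. Of 5 listed striatum markers 3 were measured at P14, and 3 of 3 were higher (median 0.36), 2 of them at an unadjusted p under 0.05 in limma. Their mean overlapped narrowly, with 8.67 to 9.15 in mutants and 8.51 to 8.68 in controls. At P9 the mean of 6 astrocyte markers was higher in mutants (10.12 to 10.18 against 9.98 to 10.00), with 4 of 6 higher. So was that of 5 excitatory neuron markers (10.42 to 10.43 against 10.39 in both controls), with 4 of 5 higher and *Tbr1* at -0.25. The endothelial mean (7.52 to 7.68 against 7.41 to 7.49, 4 of 7 higher) and the only measured blood marker (6.02 to 6.21 against 5.82 to 5.91) were also higher. The mean of 4 choroid plexus markers was lower (4.61 to 4.73 against 4.79 to 4.82). With 2 mice a group, 22.0% of all genes lay higher without overlap at P9. The meningeal and fibroblast list overlapped at all 3 ages. The part of these cell types in the differences of the 8 genes was not tested.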

How the data were processed

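The authors corrected the background, quantile-normalized the arrays and summarized probe sets with RMA (the submitters' processing notes name Partek 6), and deposited log2 values. No source read here names the genome build. The labels give sensorimotor cortex and a miRNeasy kit, and the methods dorsal cortex, Trizol and an RNeasy Mini kit. Precision is set by the number of arrays, since intensities carry no depth.

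Probe sets annotated with 1 gene symbol (21789 of 35557 on the loss-of-function array, 23521 of 41345 on the gain-of-function array) were kept, and the brightest represented its gene, which left 19938 and 22180 genes. Of these probe sets 21698 and 23328 matched the RefSeq gene table by Entrez number. Mutants and controls were compared separately at each age in limma 3.58.1 (lmFit, eBayes, R 4.3.3), and two-sided p-values were adjusted by Benjamini-Hochberg across every gene of the table. The procedure was tested on simulated data with independent noise for each gene and array. Those data lacked the deviation shared by P14 mice that is given below, so the test does not cover it. Labels give no litter or culture, and p-values measure the spread between these arrays, moderated across genes. At P14 that spread includes a deviation shared by mice of both genotypes. With group means removed, mutant 1 correlated across genes at 0.76 with control 2 and at -0.70 with control 10. At P9 such values ran from -0.07 to 0.07, and at P21 from -0.14 to 0.10. The 8 genes and all lists were chosen with earlier results of these data known. Besides them, the text names *Map2k1*, *Map2k2*, *Neurod6*, *Xist*, the nearest relatives, up to 4 called genes of a list, genes passing the opposite-direction counts and the 5 genes most and least alike in pattern; *Robo3*, *Acan*, unadjusted ERK genes, oligodendrocyte markers and genes near *Map2k2* were added after their values were seen. Alternatives were quantile normalization, median centring, removal of the dimmest 30 percent of probe sets, no moderation, trended and robust moderation, 1 fit for both loss-of-function ages, the mean of probe sets, sex, the P14 array sets and each mouse left out.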

Additional observations from a re-analysis of the deposited data

How the results depend on the processing

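No paired analysis was possible because mutants and controls of an age share no mouse numbers and litters are not assigned. With 2 or 3 arrays a group, only large differences could pass. The shares of all genes in this text are those of the main fit, and none is given for an alternative. At P14 and P21, 8 of the 8 genes kept their direction under every alternative run, each mouse left out included (8 to 8). The genes were chosen for these directions on the same arrays, and several alternatives cannot change the difference, so this is no test. Of the P9 differences of single genes under alternatives, 82 kept their side of the threshold, 5 passed it and 1 turned, that of *Plk5* to -0.027 without control 3 (0.18 without control 2). The number of the 8 genes called at P9, 0, became 2 with both ages in 1 fit, which draws its variance also from the P14 arrays that chose them. It became 3 with trended and robust moderation, and was 0 to 0 with a mouse left out. Called relatives at P9 became 1 with trended and robust moderation. Those at P14, 0, became 2 with both ages in 1 fit, 9 with the P14 array sets as a block, 1 without dim probe sets, 1 with quantile normalization and 6 within mice 9 to 12. Called ERK-induced genes at P9, 1, became 4 with both ages in 1 fit, 4 without dim probe sets, 8 with trended and robust moderation, 0 with the mean of probe sets, 0 without moderation, and 0 to 1 with a mouse left out. Those at P14, 12, became 1 without moderation, 6 with sex as a covariate, and 4 to 10 with a mouse left out. They became 16 with the P14 array sets as a block and 15 within mice 9 to 12. Genes higher at P14 and lower at P21 numbered 7 past 1.5-fold and an unadjusted p of 0.05 at both ages, 0 past an adjusted p at both, 201 without overlap at both (beside 116 higher at both, 135 lower at both and 141 lower then higher), and 28 past an adjusted p at P14 and an unadjusted p at P21, a criterion chosen after seeing the data. The causes were not tested.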

Other observations

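Of 12248 genes compared over the 16 mice as deviations from the control mean of their age, *Necab3* (Pearson r = 0.99), *Glg1* (0.97), *Vamp1* (0.97), *Rorb* (0.96) and *Sptb* (0.96) followed the mean of the 8 genes most closely. At P9, P14 and P21 *Necab3*, a calcium-binding protein gene, differed by 0.55, 0.86 and -0.38, *Rorb*, a layer 4 transcription factor, by 0.78, 0.85 and -0.58, and *Vamp1*, a synaptic vesicle protein gene, by 0.38, 0.88 and -0.36. *Sptb*, a spectrin gene, differed by 0.33, 0.42 and -0.34. Running most opposite were *Calhm5* (r = -0.97), *Gpc6* (-0.97), *Dbpht2* (-0.96), *Raver2* (-0.96) and *Ptpru* (-0.96). *Gpc6*, a glypican gene, differed by -0.51, -0.73 and 0.29, and *Ptpru*, a receptor phosphatase gene, by -0.56, -0.62 and 0.38. These correlations follow the group differences and share arrays, and are descriptions with no test.

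The loss-of-function mutants carry a germline deletion of *Map2k2*. Among 85 measured protein-coding genes within 50 genes on either side of it, none but *Plk5* was called at P14, against 1.09% of all genes. *Plk5* was chosen for its P14 difference, so its own call was fixed by that choice and is no result about the region. Their median P14 difference was 0.00, and none was called at P9, against 0.0752%.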
